A study of Mus musculus with 18 samples.

Results

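Genes that mark the stem cells at the base of the small intestinal crypt were followed through 18 cultures of mouse intestinal organoids. The markers were 10 of the 55414 genes in the deposited table, chosen by name and found in it by gene identifier: Lgr5 (ENSMUSG00000020140.16), Olfm4 (ENSMUSG00000022026.8), Ascl2 (ENSMUSG00000009248.7), Smoc2 (ENSMUSG00000023886.11), Tnfrsf19 (ENSMUSG00000060548.14), Sox9 (ENSMUSG00000000567.6), Lrig1 (ENSMUSG00000030029.15), Msi1 (ENSMUSG00000054256.12), Prom1 (ENSMUSG00000029086.16) and Cd44 (ENSMUSG00000005087.18). All 10 passed the filter on low counts in every fit.

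The crypt base stem cell is kept by Wnt signals, which R-spondins strengthen through the receptor Lgr5, and by Notch and EGF signals that Paneth cells beside it help to supply. It divides continuously and renews the epithelium, and when these cells are lost to drugs or radiation, other crypt cells can return to the stem cell state. Some of the markers are strongest at the crypt base (Lgr5, Olfm4, Ascl2, Smoc2), while others (Sox9, Lrig1, Prom1, Cd44) reach further into the transit-amplifying cells above it. Levels of such genes in a whole culture depend on both kinds of cell, and in bulk samples fewer cells of a type and less RNA per cell cannot be told apart.

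All cultures came from the small intestine of wild-type C57BL/6J mice and were harvested on day 6, with 3 libraries per group, which the series calls biological replicates. MG_5FU and MG_Control held crypt-derived organoids in Matrigel, a basement membrane extract, under ENR medium (EGF, Noggin and R-spondin 1), with 40 µM 5-fluorouracil (5-FU, a pyrimidine analog that blocks thymidylate synthesis) from day 4 and without it. COL_5FU and COL_Control were the same pair in collagen type I under ENRW medium, so the matrix and the medium changed together between the collagen and Matrigel groups and their effects cannot be told apart. VIL held villus-derived organoids, from villi near the outlet of the stomach, and COL_cWRNE crypt-derived organoids, both without the drug, in collagen type I under 25% cWRNE medium. What ENRW and cWRNE add beyond these labels is not given in the sources used here.

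Libraries held 22.3 to 34.5 M estimated counts, and all 9 markers of intestinal epithelium were at 1 CPM or more in each library, matching the labelled cell type. Levels are counts per M (CPM) after TMM scaling over the 18 libraries, for comparing one gene between libraries. TPM, which also corrects for transcript length, is used between genes. VIL replicates 2 and 3 stood apart: the summed level of 10 mesenchymal markers was 50.5, 743 and 704 CPM in VIL replicates 1, 2 and 3, against 0.667 to 13.9 CPM in the other 15 libraries. Replicate 2 of each group carried counts on 4 Y-linked genes and at most 0.536 CPM of Xist. COL_Control replicate 3 went against that pattern, with 738 Y-linked counts beside 177 CPM of Xist, and the calls of markers that rest on it are given with and without it.

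Promoters are shown for the 3 members whose levels differed most widely between groups among those with a sequence in the table: Olfm4, Tnfrsf19 and Cd44. The sequences are RefSeq's (build GRCm38.p6), 250 bases before to 50 after the start, 5′ to 3′ on the strand of the gene. They lie at chr14:80000052-80000351 on the plus strand for Olfm4, chr14:61037938-61038237 on the minus strand for the second listed start of Tnfrsf19, and chr2:102901616-102901915 on the minus strand for Cd44. Capitals mark matches to the motifs named below.
Olfm4: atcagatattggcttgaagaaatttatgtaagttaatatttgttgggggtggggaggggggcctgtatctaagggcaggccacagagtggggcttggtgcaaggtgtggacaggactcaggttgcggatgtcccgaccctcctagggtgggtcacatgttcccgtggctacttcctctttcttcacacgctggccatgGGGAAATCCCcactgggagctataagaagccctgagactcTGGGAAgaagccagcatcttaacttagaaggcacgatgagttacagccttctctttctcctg
Tnfrsf19: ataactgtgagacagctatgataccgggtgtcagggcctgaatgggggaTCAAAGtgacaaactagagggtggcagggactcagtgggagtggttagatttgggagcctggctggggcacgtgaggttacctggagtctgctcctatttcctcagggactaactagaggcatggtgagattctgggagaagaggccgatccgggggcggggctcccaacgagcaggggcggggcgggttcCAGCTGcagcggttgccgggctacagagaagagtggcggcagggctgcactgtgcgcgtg
Cd44: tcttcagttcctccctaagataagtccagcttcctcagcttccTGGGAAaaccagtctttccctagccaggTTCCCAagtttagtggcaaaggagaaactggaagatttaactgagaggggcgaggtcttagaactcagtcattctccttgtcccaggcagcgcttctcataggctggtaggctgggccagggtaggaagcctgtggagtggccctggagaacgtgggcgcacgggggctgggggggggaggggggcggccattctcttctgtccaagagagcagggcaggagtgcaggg

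Sequences were at hand for 6 of the 10 members (8 starts: Cd44, Lrig1, Ascl2 and Olfm4 with 1 each, Prom1 and Tnfrsf19 with a pair each). The 4 motifs were searched on both strands, chosen with the sequences in view. CTTTGA, the core read by the Wnt effectors TCF and LEF, is held by 16.0% of all 32851 mouse promoters in the table; among the members it lay at the second Tnfrsf19 start (from -201) and the second Prom1 start (from 9). TGGGAA, the core read by the Notch effector RBPJ, is held by 25.6% of promoters and lay in those of Olfm4 (from -12), Cd44 (from -207 and -179) and the first Prom1 start (from -116). An NF-kB motif is held by 0.664% of promoters and lay in that of Olfm4 (from -52). The E-box CAGCTG, of the type read by Ascl2, is held by 16.3% and lay at the second Tnfrsf19 start (from -10). The first Tnfrsf19 start, which is not printed, and the starts of Lrig1 and Ascl2 held none of the 4 motifs. Positions count from the start site, no matches overlapped, and a match is a string of letters, not a site shown to be bound.

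Olfm4, a secreted glycoprotein of crypt base cells, was the member with the widest range. Its mean was 8.08 CPM in COL_5FU and 3816 CPM in MG_Control, a 472-fold range. Tnfrsf19, a TNF receptor family member and Wnt target also called Troy, spanned 11.3-fold between its highest and lowest group means, Smoc2 8.45-fold, Cd44 8.34-fold, Msi1 8.32-fold, Lgr5 4.94-fold and Prom1 4.15-fold. The fold of Msi1 is uncertain, since its lowest mean was 0.233 CPM, in VIL. The narrowest ranges were those of Lrig1 at 2.60-fold, Sox9 at 2.46-fold and Ascl2 at 2.01-fold.

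**Figure D1:**
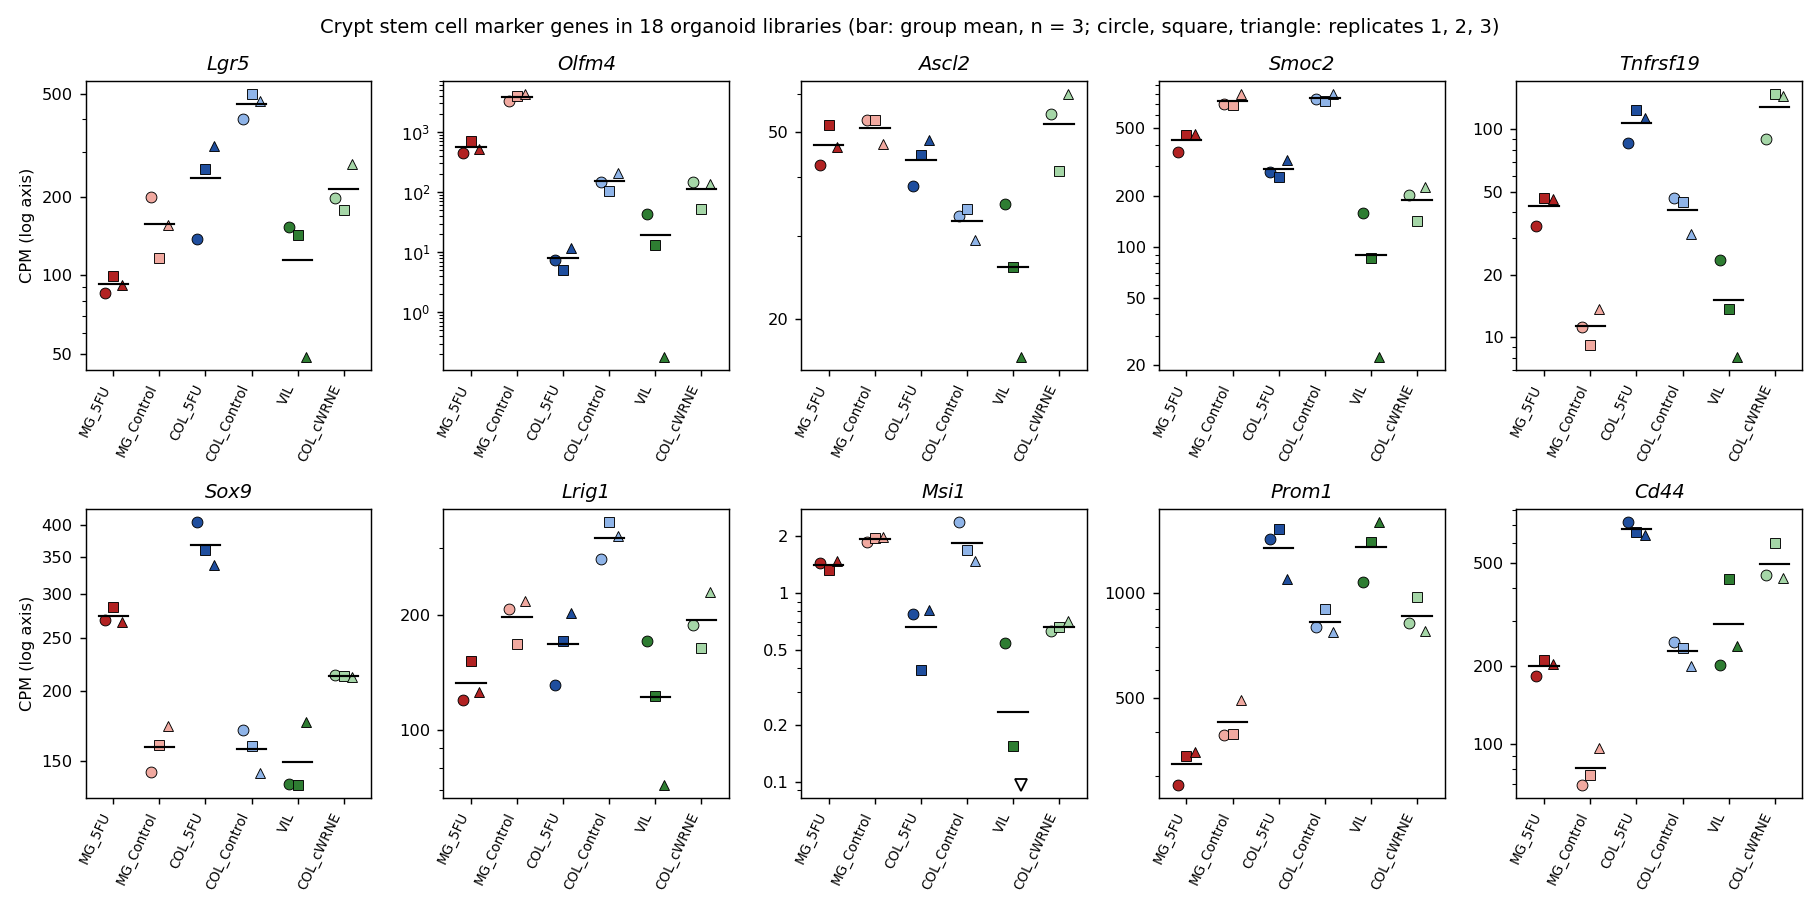
CPM (log axis, a separate scale in each panel) of the 10 markers in each of the 18 libraries, by group; horizontal bars are group means (n = 3), and the open triangle stands for 0 CPM of Msi1 in VIL replicate 3. Olfm4 spans 0.181 to 4274 CPM, while Ascl2 stays between 16.7 and 60.0 CPM.

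On the TPM scale the make-up of the marker set differed by group. Olfm4 gave 28.9 to 35.5% of the summed TPM of the 10 genes in MG_5FU and 69.2 to 73.9% in MG_Control. Its share was 0.204 to 0.523% in COL_5FU, 4.50 to 9.30% in COL_Control, 0.0116 to 3.00% in VIL and 2.86 to 8.46% in COL_cWRNE. Olfm4 led the 10 genes by mean TPM in both Matrigel groups. Prom1 led in COL_5FU, VIL and COL_cWRNE, Smoc2 led in COL_Control, and Msi1 was the lowest of the 10 in every group, at 2.24 TPM or less in each library. The ratio of Olfm4 to Lgr5 TPM was 8.34 to 12.2 in MG_5FU, 26.4 to 54.5 in MG_Control, 0.0337 to 0.0953 in COL_5FU, 0.347 to 0.769 in COL_Control, 0.0069 to 0.502 in VIL and 0.520 to 1.38 in COL_cWRNE. All but 1 of the collagen libraries were below 1 in that ratio, and every Matrigel library was above it.

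**Figure D2:**
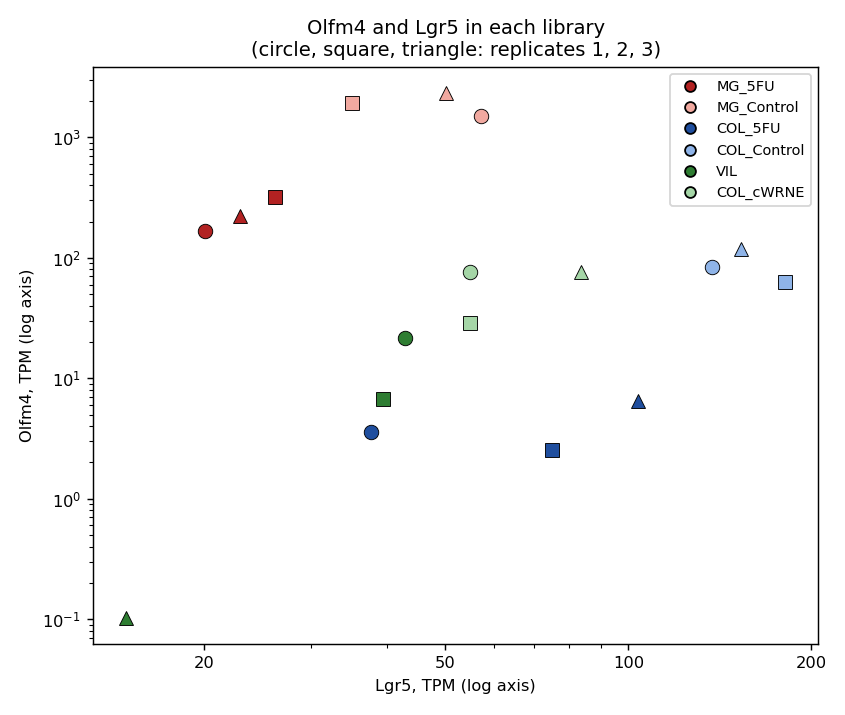
Olfm4 TPM against Lgr5 TPM in each of the 18 libraries (both axes log); colours are groups and shapes replicates. The 3 COL_Control libraries have the most Lgr5, at 137 to 181 TPM, with 62.8 to 118 TPM of Olfm4, while the 3 MG_Control libraries have 35.1 to 57.3 TPM of Lgr5 and 1511 to 2344 TPM of Olfm4.

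The 5-FU comparisons asked how crypt organoids in each matrix answered the drug. The markers did not move as a block. In both matrices Lgr5, Olfm4, Smoc2 and Lrig1 fell, and Tnfrsf19, Sox9 and Cd44 rose. A gene was called at an edgeR adjusted p under 0.05. In MG_5FU against MG_Control 7 of 10 members were called, 3 higher and 4 lower, against 30.9% of all genes tested (19.2% higher, 11.7% lower). The libraries of 9 members did not overlap, against 44.8% of all genes, and the median log2 fold change was -0.37 over the members and 0.06 over all genes. In COL_5FU against COL_Control all 10 were called, 5 in each direction, against 35.3% of genes (18.6% higher, 16.7% lower). None of the 10 overlapped, against 49.3% of genes without overlap, with medians of -0.27 over the members and -0.03 over all genes. Without COL_Control replicate 3 the log2 fold changes in collagen were -0.95 for Lgr5, -3.97 for Olfm4, -1.38 for Smoc2, 1.21 for Tnfrsf19, 1.13 for Sox9, 1.45 for Cd44, -0.93 for Lrig1, -1.65 for Msi1 and 0.63 for Prom1, and all 9 stayed called (adjusted p 5.74e-06 to 0.023). Only the call of Ascl2 ended.

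Markers of differentiated cells moved with the drug in Matrigel as well. The summed level of 4 absorptive markers was 4998 to 6445 CPM in MG_5FU and 1707 to 1907 CPM in MG_Control, that of 4 enteroendocrine markers 1607 to 1726 CPM in MG_5FU and 418 to 534 CPM in MG_Control, and that of 5 goblet markers 3883 to 5457 CPM in MG_5FU and 2018 to 2429 CPM in MG_Control. In collagen the absorptive sum was 41.9 to 91.9 CPM in COL_5FU and 75.2 to 496 CPM in COL_Control, which overlapped. There the enteroendocrine sum also overlapped, at 199.7 to 393 CPM in COL_5FU and 159 to 249 CPM in COL_Control, and the goblet sum was lower, at 796 to 880 CPM in COL_5FU against 1268 to 1580 CPM in COL_Control. The part of these cells in the drug results was not tested.

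**Figure D3:**
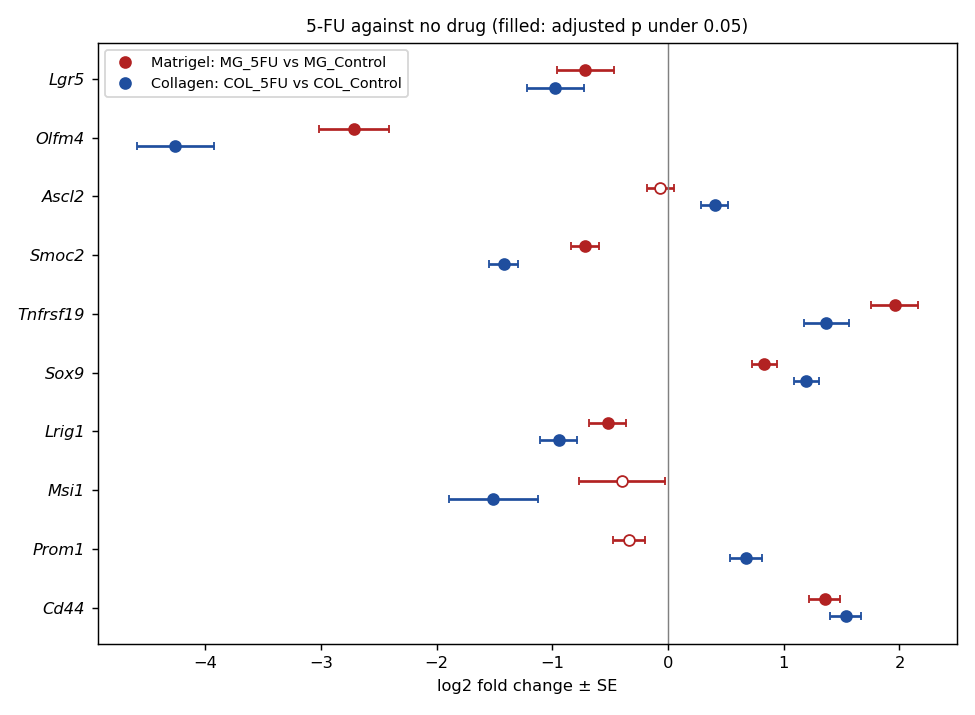
Log2 fold change with 5-FU for each marker, with its standard error, in Matrigel (MG_5FU against MG_Control) and collagen (COL_5FU against COL_Control), 3 libraries per group; filled points have an adjusted p under 0.05. Tnfrsf19, Sox9 and Cd44 lie right of 0 and Lgr5, Olfm4, Smoc2 and Lrig1 left of it in both matrices. Prom1 and Ascl2 each lie on opposite sides, and neither was called in Matrigel.

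Among the crypt base markers, Lgr5, the R-spondin receptor, had 85.5, 99.9 and 91.8 CPM in MG_5FU, against 201, 116 and 157 CPM in MG_Control. Each drug library was below each untreated one, and the gene fell, with a log2 fold change of -0.71 ± 0.25 (standard error; adjusted p = 0.041 in edgeR). That call ended without MG_Control replicate 1 or 3 or any one MG_5FU replicate (adjusted p 0.0682 to 0.159). In collagen Lgr5 had 138, 257 and 316 CPM in COL_5FU, against 399, 499 and 470 CPM in COL_Control. The groups again did not overlap, with a fall of 0.97 ± 0.25 (adjusted p = 0.00728).

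Olfm4 had 450, 713 and 523 CPM in MG_5FU, against 3245, 3929 and 4274 CPM in MG_Control. Every drug library was far below every untreated one, and the log2 fold change was -2.71 ± 0.30 (edgeR adjusted p = 1.59e-05), a 6.55-fold reduction. Collagen libraries were lower throughout, with 7.35, 5.01 and 11.9 CPM in COL_5FU against 148, 104 and 207 CPM in COL_Control. There the log2 fold change was -4.26 ± 0.33 (adjusted p = 1.22e-06), a 19.2-fold reduction.

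Smoc2, a secreted calcium-binding matrix protein, had 363, 456 and 461 CPM in MG_5FU, against 697, 690 and 797 CPM in MG_Control, and fell by 0.72 ± 0.12 (edgeR adjusted p = 0.000583). In COL_5FU it had 275, 259 and 328 CPM, against 746, 723 and 794 CPM in COL_Control, a fall of 1.42 ± 0.13. Neither pair overlapped, and the untreated groups were at similar levels in the 2 matrices.

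Ascl2, the basic helix-loop-helix factor that sets the stem cell programme, was not called lower in either matrix, unlike Lgr5, Olfm4 and Smoc2. It had 42.5, 51.6 and 46.3 CPM in MG_5FU and 52.9, 52.8 and 47.1 CPM in MG_Control, overlapping groups with a log2 difference of -0.07 ± 0.12 (edgeR adjusted p = 0.709). The size depended on the scale: alternative settings gave -0.43 to -0.07, and none called it. In TPM it had 35.4, 53.7 and 44.8 in MG_5FU and 53.5, 61.2 and 64.3 in MG_Control. In collagen it had 38.4, 44.6 and 47.9 CPM in COL_5FU, against 33.2, 34.2 and 29.5 CPM in COL_Control, where it rose by 0.40 ± 0.12 (adjusted p = 0.0151). The rise was not called without COL_Control replicate 3 (0.35, adjusted p = 0.0653) or COL_5FU replicate 3 (adjusted p = 0.0637).

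The members that rose with the drug in both matrices, Tnfrsf19, Sox9 and Cd44, are known as Wnt targets, as are Lgr5 and Ascl2. Tnfrsf19 had 34.5, 46.9 and 46.5 CPM in MG_5FU, against 11.2, 9.19 and 13.7 CPM in MG_Control, a log2 fold change of 1.96 ± 0.21 (edgeR adjusted p = 9.69e-06). It had 85.9, 124 and 114 CPM in COL_5FU, against 46.9, 44.6 and 31.3 CPM in COL_Control, a log2 fold change of 1.37 ± 0.20. Within each matrix the drug libraries were all above the untreated ones, and the 3 untreated Matrigel libraries were the lowest of the 12.

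Sox9, an HMG-box factor needed for Paneth cells and expressed through the lower crypt, had 269, 284 and 267 CPM in MG_5FU, against 143, 160 and 174 CPM in MG_Control (log2 fold change 0.83 ± 0.11). It had 405, 360 and 338 CPM in COL_5FU, against 170, 159 and 142 CPM in COL_Control (1.19 ± 0.11). The drug groups did not overlap between the matrices, and the untreated groups did. The summed level of 6 Paneth cell markers was 36383 to 38730 CPM in MG_5FU and 10682 to 11963 CPM in MG_Control, but 4556 to 5460 CPM in COL_5FU and 3877 to 5493 CPM in COL_Control, so it moved with Sox9 in Matrigel and overlapped in collagen. The part of these cells in the result was not tested.

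Cd44, a hyaluronan receptor, had 184, 212 and 204 CPM in MG_5FU, against 69.9, 76.0 and 96.8 CPM in MG_Control, a log2 fold change of 1.35 ± 0.13. In COL_5FU it had 721, 660 and 643 CPM, against 248, 235 and 201 CPM in COL_Control, a log2 fold change of 1.53 ± 0.13. The 3 COL_5FU libraries were the highest of all 18 for this gene.

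Lrig1, which restrains ErbB receptors and marks a more quiescent part of the crypt, had 120, 152 and 126 CPM in MG_5FU, against 208, 169 and 218 CPM in MG_Control, and fell by 0.52 ± 0.16 (edgeR adjusted p = 0.0237). This call ended without MG_Control replicate 1 or 3 or MG_5FU replicate 1 or 3 (adjusted p 0.0568 to 0.0908). It had 131, 171 and 202 CPM in COL_5FU, against 280, 350 and 322 CPM in COL_Control, and fell by 0.95 ± 0.16 (adjusted p = 0.000525). The Matrigel falls of Lgr5, Smoc2 and Lrig1 were also not called when all 18 libraries were fitted together, with adjusted p of 0.125, 0.195 and 0.0964. In collagen the same fit ended the calls of Lgr5 (0.0532), Ascl2 (0.125) and Msi1 (0.094), and that of Ascl2 ended also with scaling by library totals (0.0783) and in limma on TPM (0.141).

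Msi1, an RNA-binding protein, rested on 11 to 75 counts per library in these 12 cultures. It had 0.776, 0.391 and 0.812 CPM in COL_5FU, against 2.39, 1.69 and 1.49 CPM in COL_Control, and fell by 1.51 ± 0.39 (edgeR adjusted p = 0.00783). In Matrigel it had 1.45, 1.32 and 1.48 CPM with the drug and 1.87, 1.97 and 1.98 CPM without it, which did not overlap but gave a difference of -0.40 ± 0.37 (adjusted p = 0.465).

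Prom1, the membrane glycoprotein CD133, had 283, 341 and 350 CPM in MG_5FU and 392, 394 and 492 CPM in MG_Control. The groups did not overlap, but the log2 difference of -0.34 ± 0.14 was not called (edgeR adjusted p = 0.0827), although it was under 7 of the alternative settings, DESeq2 among them (adjusted p = 0.0365). In collagen it had 1417, 1517 and 1091 CPM in COL_5FU, against 795, 898 and 773 CPM in COL_Control, and rose by 0.67 ± 0.14 (adjusted p = 0.00211).

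Whether the drug effect differed between the matrices was tested as an interaction. Of the 10 members 3 were called, against 8.19% of genes (1.88% higher, 6.30% lower in collagen than in Matrigel). Prom1 differed by 1.01 ± 0.20 on the log2 scale (edgeR adjusted p = 0.0064), Olfm4 by -1.55 ± 0.41 (adjusted p = 0.0349) and Smoc2 by -0.70 ± 0.17 (adjusted p = 0.0242). The Prom1 difference stayed called with each library left out in turn. Those of Olfm4 and Smoc2 ended without any one of MG_Control replicates 1 and 2, MG_5FU replicates 2 and 3, COL_Control replicate 3 and COL_5FU replicates 1 and 2 (adjusted p 0.0615 to 0.0884 for Olfm4 and 0.054 to 0.069 for Smoc2). Both were also not called by limma on TPM (adjusted p 0.096 to 0.17) or when all 18 libraries were fitted together (0.564 and 0.652). For the other members, including Ascl2 at 0.47 ± 0.16 (adjusted p = 0.0988), no difference was called, although DESeq2 called that of Ascl2 (0.52, adjusted p = 0.0304).

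Among genes known to be enriched in Lgr5 cells, more fell than rose with the drug. Of 24 such genes other than the members, 3 rose and 11 fell in MG_5FU (median -0.43, against 0.06 over all genes), and 3 rose and 9 fell in COL_5FU (median -0.26, against -0.03). Of all genes 30.9% were called in MG_5FU (19.2% higher, 11.7% lower) and 35.3% in COL_5FU (18.6% higher, 16.7% lower). The rises in this list were not above those shares. Aqp4, a water channel, had 10.3, 7.49 and 7.25 CPM in MG_5FU against 93.2, 95.9 and 85.6 CPM in MG_Control, and Gkn3, a gastrokine, 3.11, 2.95 and 4.06 CPM in MG_5FU against 27.5, 22.2 and 17.3 CPM in MG_Control. Prelp, a small leucine-rich proteoglycan, had log2 fold changes of -4.35 ± 0.53 in Matrigel and -5.09 ± 0.59 in collagen. Cyp2e1, a cytochrome P450, went the other way, with 75.0, 64.6 and 55.7 CPM in MG_5FU against 5.42, 4.68 and 7.39 CPM in MG_Control (3.53 ± 0.22).

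Of 20 receptors and transducers of the Wnt and R-spondin signal, 3 rose and 1 fell in MG_5FU (median -0.10), and 1 rose and 7 fell in COL_5FU (median -0.26). Of all genes 19.2% rose and 11.7% fell in MG_5FU and 18.6% rose and 16.7% fell in COL_5FU, so the Matrigel counts of these genes were not above those shares. Lgr4, the paralogue of Lgr5, fell to 67.2, 95.9 and 97.2 CPM in COL_5FU, against 118, 168 and 162 CPM in COL_Control (-0.81 ± 0.19, edgeR adjusted p = 0.005), and Tcf7l2, the main TCF of the intestine, fell by 0.71 ± 0.12 there. Ctnnb1, which encodes beta-catenin, rose by 0.31 ± 0.10 in MG_5FU.

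Of 11 genes of reserve and revival stem cells, 6 rose and 1 fell in each matrix, with medians of 0.90 in MG_5FU and 1.01 in COL_5FU, where 30.9% and 35.3% of all genes were called. Clu, the revival stem cell marker, rose by 2.37 ± 0.26 in MG_5FU and by 1.73 ± 0.25 in COL_5FU, and Anxa1 by 2.87 ± 0.38 in MG_5FU and by 2.17 ± 0.36 in COL_5FU. The genes behind the equal counts were not all the same. Dclk1, also a tuft cell gene, rose by 0.90 ± 0.25 in MG_5FU and fell by 1.39 ± 0.28 in COL_5FU (edgeR adjusted p of the difference 0.00233). Mex3a fell by 0.96 ± 0.28 in MG_5FU, and its -0.61 ± 0.27 in COL_5FU was not called (adjusted p = 0.102). Bmi1 rose by 1.01 ± 0.21 in COL_5FU and was not called in MG_5FU (0.04 ± 0.20). The difference between the matrices was not called for Mex3a (adjusted p = 0.685) or Bmi1 (0.054). Ly6a rose in both, by 3.59 ± 0.37 in MG_5FU and by 1.31 ± 0.33 in COL_5FU, and these differed (adjusted p = 0.00969). In contrast, 17 of 18 proliferation genes fell in MG_5FU (median -1.08) and 11 of 18 in COL_5FU (median -0.54). Mki67 had 42.5, 57.7 and 74.2 CPM in COL_5FU, against 176, 146 and 149 CPM in COL_Control. Of 12 Paneth cell niche and granule genes, 9 rose and 1 fell in MG_5FU (median 1.65), while 2 rose and 4 fell in COL_5FU (median -0.22). The Notch ligands Dll4 and Dll1 fell by 1.15 ± 0.18 and 0.83 ± 0.17 in COL_5FU. There the secreted phospholipase Pla2g2a rose by 1.12 ± 0.20 and the EGF receptor ligand Tgfa by 0.71 ± 0.13. With the drug in Matrigel Dll1 also fell (-0.67 ± 0.16), and Pla2g2a (2.46 ± 0.20) and Tgfa (0.53 ± 0.14) also rose. Dll4 was not called in MG_5FU (0.38 ± 0.17, edgeR adjusted p = 0.108).

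Collagen with ENRW was set against Matrigel with ENR to see how the culture itself set the markers. Without drug, Lgr5, Tnfrsf19, Lrig1, Prom1 and Cd44 were higher in COL_Control than in MG_Control, and Olfm4 and Ascl2 were lower. These 7 calls of 10 stand against 31.2% of all genes (15.8% higher, 15.4% lower), and the 7 were also those without overlap, against 43.4% of genes. The 7 calls held without any one library, and without COL_Control replicate 3 the log2 fold changes were 1.502 for Lgr5, 2.00 for Tnfrsf19, 0.66 for Lrig1, 0.98 for Prom1, 1.56 for Cd44, -4.94 for Olfm4 and -0.60 for Ascl2. The call of Lrig1 ended when all 18 libraries were fitted together (adjusted p = 0.0521). The median log2 fold change was 0.36 over the members and 0.04 over all genes. Under the drug 8 were called between COL_5FU and MG_5FU, 5 higher and 3 lower, against 35.5% of genes (17.0% higher, 18.6% lower). The same 8 did not overlap, against 51.1%, and the medians were 0.29 and -0.0013. These comparisons use the same 12 libraries as the drug comparisons and are not independent of them.

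Using the levels given above, Lgr5 was 2.88-fold higher in COL_Control than in MG_Control (log2 1.53 ± 0.25, edgeR adjusted p = 0.000412) and 2.41-fold higher in COL_5FU than in MG_5FU (log2 1.27 ± 0.25). Olfm4 went the opposite way, 25.1-fold lower in COL_Control (log2 -4.65 ± 0.33) and 73.5-fold lower in COL_5FU (log2 -6.20 ± 0.36). In untreated collagen cultures the library with the most Lgr5, at 499 CPM, had 104 CPM of Olfm4, and in untreated Matrigel cultures the one with the most, at 201 CPM, had 3245 CPM of it.

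Cd44 was higher in collagen by 1.48 ± 0.13 without drug and by 1.66 ± 0.13 with it, Tnfrsf19 by 1.84 ± 0.20 and 1.25 ± 0.20, and Prom1 by 0.94 ± 0.14 and 1.95 ± 0.14 on the log2 scale. Lrig1 was higher by 0.67 ± 0.16 in COL_Control (edgeR adjusted p = 0.00596), while with the drug its difference was 0.25 ± 0.16 (adjusted p = 0.255). Ascl2 was lower by 0.66 ± 0.12 in COL_Control than in MG_Control, and its 29.5 to 34.2 CPM there all lay under the 47.1 to 52.9 CPM of the Matrigel group. With the drug the Ascl2 groups overlapped.

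Smoc2, Sox9 and Msi1 gave log2 differences of 0.04 ± 0.12, -0.03 ± 0.11 and -0.07 ± 0.37 without the drug, with overlapping groups and edgeR adjusted p of 0.84, 0.891 and 0.915. Under the drug Smoc2 was lower in COL_5FU than in MG_5FU by 0.66 ± 0.12 (adjusted p = 0.000934), a call that ended in limma on TPM (adjusted p = 0.162) and when all 18 libraries were fitted together (0.328). Sox9 was higher by 0.33 ± 0.11 and Msi1 lower by 1.19 ± 0.39. The Sox9 call ended without MG_5FU replicate 1 or 3 or COL_5FU replicate 1 or 2 (adjusted p 0.0511 to 0.0881), and that of Msi1 without any one MG_5FU replicate or COL_5FU replicate 2 (0.0529 to 0.11). The Msi1 call also ended with no filter (0.16), in limma on TPM (0.117 and 0.124), with all 18 libraries fitted together (0.22) and with only the compared groups fitted (0.0688).

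Of the 24 other genes of Lgr5 cells, 4 were higher and 9 lower in COL_Control than in MG_Control (median -0.25). In this comparison 31.2% of all genes were called (15.8% higher, 15.4% lower). Rnf43 and Sp5, both Wnt targets, were higher, with Rnf43 at 194, 196 and 167 CPM in COL_Control against 85.9, 85.9 and 97.8 CPM in MG_Control (log2 1.04 ± 0.14). Aqp4 was lower, at 3.50, 10.7 and 7.61 CPM in COL_Control against 93.2, 95.9 and 85.6 CPM in MG_Control. Of the 20 Wnt receptors and transducers 6 were higher and 2 lower (median 0.30), the lower ones not above the share of all genes. Among them the co-receptor Lrp5 was higher by 1.01 ± 0.14 and the receptor Fzd5 lower by 0.69 ± 0.17. Among 12 Paneth niche genes 1 was higher and 7 were lower, with Dll1 at 14.0, 17.7 and 20.3 CPM in COL_Control against 55.8, 56.3 and 61.9 CPM in MG_Control. Just 2 of 18 proliferation genes were called, Bub1 higher (0.67 ± 0.18) and Mcm5 lower (-0.42 ± 0.11). Of 11 reserve and revival genes 3 were higher and 3 lower, with Ly6a, also called Sca-1, at 801, 389 and 442 CPM in COL_Control against 21.6, 19.9 and 9.60 CPM in MG_Control.

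**Figure D4:**
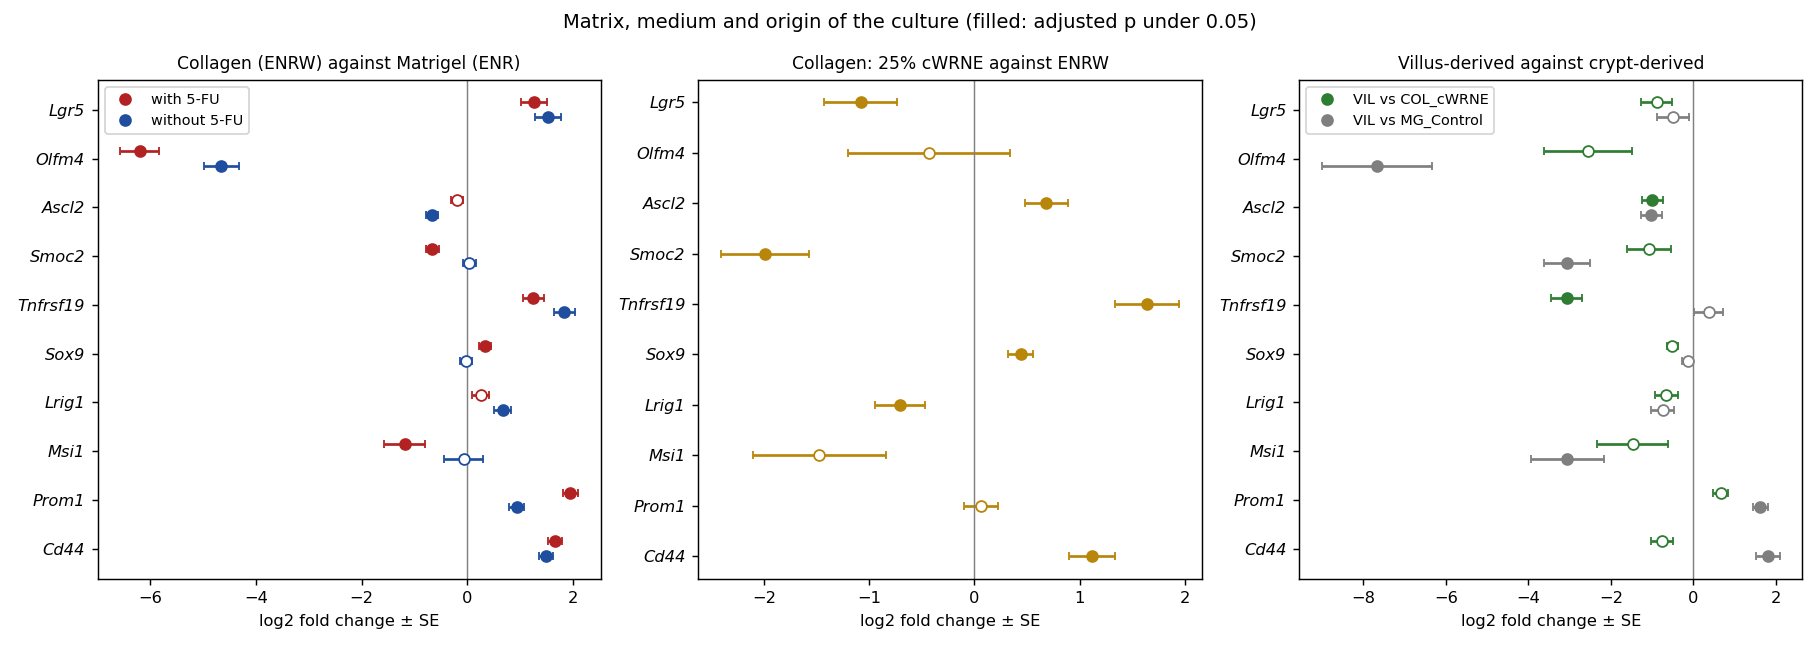
Log2 fold change with its standard error for each marker, for collagen against Matrigel with and without 5-FU (left), cWRNE against ENRW medium in collagen (middle), and VIL against COL_cWRNE and against MG_Control (right), each with its own axis; filled points have an adjusted p under 0.05. Olfm4 lies furthest left in the left panel and in VIL against MG_Control, Tnfrsf19 lies furthest left in VIL against COL_cWRNE, and Smoc2 and Tnfrsf19 lie at the ends of the middle panel.

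COL_cWRNE and COL_Control shared the matrix and differed in medium, and the markers differed between them in both directions. In COL_cWRNE against COL_Control 7 of 10 were called, with Ascl2, Tnfrsf19, Sox9 and Cd44 higher and Lgr5, Smoc2 and Lrig1 lower, against 18.0% of genes (13.1% higher, 4.85% lower). The groups of 8 members did not overlap, against 40.3% of genes, and the medians were -0.19 over the members and 0.00325 over all genes. Smoc2 had 201, 142 and 227 CPM in COL_cWRNE, against 746, 723 and 794 CPM in COL_Control, a log2 fold change of -1.99 ± 0.42 (edgeR adjusted p = 0.00342). Tnfrsf19 had 90.4, 148 and 145 CPM in COL_cWRNE, against 46.9, 44.6 and 31.3 CPM in COL_Control (1.64 ± 0.30, adjusted p = 0.00131). Cd44 had 451, 598 and 439 CPM in COL_cWRNE, against 248, 235 and 201 CPM in COL_Control (1.12 ± 0.22, adjusted p = 0.00214). These 3 calls held with any library left out, and without COL_Control replicate 3 the values were -1.99 for Smoc2, 1.44 for Tnfrsf19 and 1.00 for Cd44.

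The other calls of the medium comparison were less firm. Lgr5 had 199, 179 and 267 CPM in COL_cWRNE, against 399, 499 and 470 CPM in COL_Control (-1.08 ± 0.35, edgeR adjusted p = 0.0401). Lrig1 had 188, 164 and 230 CPM in COL_cWRNE, against 280, 350 and 322 CPM in COL_Control (-0.71 ± 0.24, adjusted p = 0.0496). Ascl2 had 54.6, 41.2 and 60.0 CPM in COL_cWRNE, against 33.2, 34.2 and 29.5 CPM in COL_Control (0.68 ± 0.20, adjusted p = 0.0263). For Sox9 there were 214, 214 and 212 CPM in COL_cWRNE, against 170, 159 and 142 CPM in COL_Control (0.44 ± 0.12, adjusted p = 0.0149). None of these groups overlapped. With the replicate number as a block the adjusted p was 0.0575 for Lgr5 and 0.0675 for Lrig1. Without COL_Control replicate 3 all 4 calls ended (adjusted p 0.0875 for Lgr5, 0.102 for Lrig1, 0.129 for Ascl2 and 0.128 for Sox9). Those of Lgr5 and Lrig1 also ended without COL_Control replicate 1 or 2 or COL_cWRNE replicate 1 or 2 (adjusted p up to 0.176). That of Ascl2 ended without COL_Control replicate 1 or 2 or COL_cWRNE replicate 1 or 3 (up to 0.0999), and that of Sox9 without COL_Control replicate 2 (0.0669). With library totals Ascl2 (0.0886) and Sox9 (0.128) were not called either. Olfm4 overlapped, at 149, 52.2 and 139 CPM in COL_cWRNE and 148, 104 and 207 CPM in COL_Control (-0.43 ± 0.77, adjusted p = 0.754). Prom1 overlapped as well, at 819, 974 and 776 CPM in COL_cWRNE and 795, 898 and 773 CPM in COL_Control (0.06 ± 0.16, adjusted p = 0.849). Msi1 had 0.629, 0.659 and 0.708 CPM in COL_cWRNE and 2.39, 1.69 and 1.49 CPM in COL_Control, which did not overlap but was not called (-1.48 ± 0.63, adjusted p = 0.123), although DESeq2 called it (0.0139).

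Of the 24 other genes of Lgr5 cells 7 were higher and 3 lower in COL_cWRNE than in COL_Control (median 0.41). Gkn3 had 45.0, 40.6 and 38.6 CPM in COL_cWRNE, against 5.86, 3.89 and 4.78 CPM in COL_Control. Of 22 Wnt receptors and transducers 4 were higher and 1 lower, close to the 18.0% of all genes called. Among them Ctnnb1 was higher by 0.66 ± 0.12, and Lef1, a partner of beta-catenin, was higher by 3.52 ± 0.78. The proliferation genes Tyms, Pcna, Bub1 and Mcm3 were the 4 of 18 that fell.

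Crypt-derived cultures in COL_cWRNE also differed from those in Matrigel, the comparison that changes matrix and medium together. Of the members 5 were called against MG_Control, 3 higher (Tnfrsf19, Prom1 and Cd44) and 2 lower (Olfm4 and Smoc2), against 33.3% of genes (20.1% higher, 13.1% lower). Without overlap were 7, against 55.2% of genes, and the medians were 0.18 and -0.00785. Tnfrsf19 was 10.9-fold higher in COL_cWRNE (log2 3.44 ± 0.38, edgeR adjusted p = 0.000194), Cd44 5.92-fold higher and Olfm4 34.8-fold lower (log2 -5.12 ± 1.18, adjusted p = 0.00918). Smoc2 was lower by 1.99 ± 0.54 (adjusted p = 0.0194), a call that ended without MG_Control replicate 3 or COL_cWRNE replicate 1 or 2 (0.0525 to 0.0802). Lgr5 overlapped between the groups and was not called (0.40 ± 0.38, adjusted p = 0.455).

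Villus-derived cultures were compared with crypt-derived ones in the same matrix and medium. In VIL against COL_cWRNE 2 of 10 members were called, both lower (Tnfrsf19 and Ascl2), against 7.64% of genes (5.68% higher, 1.96% lower). The libraries of 8 members did not overlap, against 27.7% of genes, and the median log2 fold change was -0.94 over the members and -0.03 over all genes. Prom1 was the only member with a positive value, at 0.66 ± 0.18 (edgeR adjusted p = 0.0527).

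**Figure D5:**
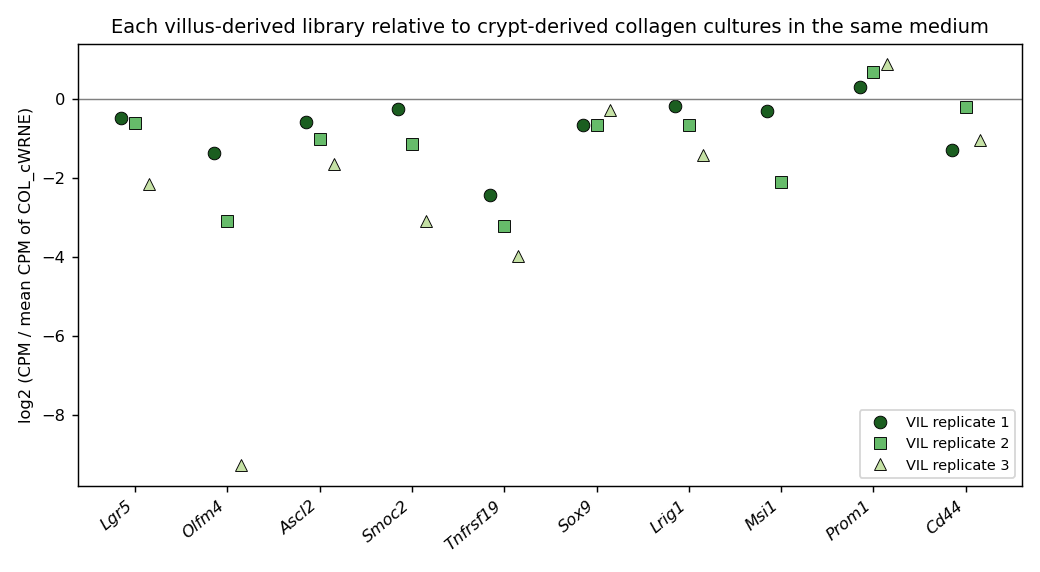
Log2 ratio of the CPM in each VIL library to the mean CPM of the 3 COL_cWRNE libraries, for each marker; Msi1 has no point for VIL replicate 3, where it had no counts. Olfm4 spreads from 38.7% of the COL_cWRNE mean in VIL replicate 1 to 0.160% in VIL replicate 3, while all 3 Tnfrsf19 points lie at 18.4% or less.

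Tnfrsf19 had 23.5, 13.7 and 8.06 CPM in VIL, against 90.4, 148 and 145 CPM in COL_cWRNE, an 8.38-fold reduction (log2 -3.07 ± 0.38, edgeR adjusted p = 0.00269). It stayed called with VIL replicate 1, which had the fewest mesenchymal counts of the 3, as the one villus-derived library (-2.42, adjusted p = 0.00194), a fit that takes a lone library to vary like the other groups. Ascl2 had 35.1, 25.8 and 16.7 CPM in VIL, against 54.6, 41.2 and 60.0 CPM in COL_cWRNE (-0.99 ± 0.25, adjusted p = 0.0438). Its call ended with VIL replicate 1 alone (-0.55, adjusted p = 0.176), without VIL replicate 2 (0.11), without any one COL_cWRNE replicate (0.0651 to 0.174), and with only the compared groups fitted (0.125).

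The VIL libraries differed from one another in the crypt base genes. Lgr5 had 154, 143 and 48.6 CPM in VIL, against 199, 179 and 267 CPM in COL_cWRNE, and was not called (-0.89 ± 0.39, edgeR adjusted p = 0.213). Olfm4 had 43.9, 13.3 and 0.181 CPM in VIL, the last from 4 counts, against 149, 52.2 and 139 CPM in COL_cWRNE (-2.55 ± 1.06, adjusted p = 0.192). Smoc2 had 159, 86.1 and 22.5 CPM in VIL, against 201, 142 and 227 CPM in COL_cWRNE (-1.08 ± 0.53, adjusted p = 0.268). In Lgr5, Olfm4, Ascl2, Smoc2, Tnfrsf19, Lrig1 and Msi1, VIL replicate 1 was the highest of the 3 and VIL replicate 3 the lowest.

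Other lineages also differed among these libraries. The summed level of 7 immune markers was 82.6, 227 and 410 CPM in VIL replicates 1, 2 and 3, against 2.19 to 58.4 CPM in the other 15 libraries, and 5 of the 7 reached 1 CPM in each VIL library. The 4 endothelial markers summed to 1.98, 3.83 and 30.6 CPM, against at most 1.64 CPM elsewhere. Of the 10 mesenchymal markers 8, 10 and 10 reached 1 CPM in the 3 VIL libraries, and Col1a1, Dcn, Ptprc and Adgre1 were above 1 CPM in each. The 6 Paneth cell markers summed to 12004, 4348 and 1285 CPM, in the order of the crypt base genes. Other differentiated lineages had the same order: goblet markers at 4139, 1874 and 469 CPM, enteroendocrine at 213, 96.5 and 7.38 CPM and absorptive at 2109, 631 and 230 CPM. Tuft cell markers did not, at 67.2, 118 and 84.3 CPM. The part of these cells in the VIL results was not tested.

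Sox9 had 136, 136 and 176 CPM in VIL, against 214, 214 and 212 CPM in COL_cWRNE (-0.51 ± 0.14, edgeR adjusted p = 0.0518). Cd44 had 203, 434 and 240 CPM in VIL, against 451, 598 and 439 CPM in COL_cWRNE (-0.76 ± 0.28, adjusted p = 0.14). With VIL replicate 1 alone both were called lower, at -0.63 (adjusted p = 0.0359) and -1.27 (0.0121). Without VIL replicate 1 the members called were 6, adding Olfm4 (-4.03, adjusted p = 0.0406), Smoc2, Lrig1 and Prom1. Prom1 had 1070, 1390 and 1591 CPM in VIL, against 819, 974 and 776 CPM in COL_cWRNE, with no overlap. Lrig1 had 171, 123 and 72.2 CPM in VIL and 188, 164 and 230 CPM in COL_cWRNE, overlapping groups (-0.66 ± 0.28, adjusted p = 0.202).

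Against crypt-derived organoids in Matrigel, 6 members were called in VIL, Prom1 and Cd44 higher and Olfm4, Ascl2, Smoc2 and Msi1 lower, against 46.6% of genes (27.0% higher, 19.7% lower). The same 6 did not overlap, against 57.8% of genes, and the medians were -0.62 over the members and 0.02 over all genes. The log2 fold change was -7.67 ± 1.33 for Olfm4 (edgeR adjusted p = 0.00167), -3.06 ± 0.56 for Smoc2, 1.62 ± 0.18 for Prom1 and 1.81 ± 0.28 for Cd44. With VIL replicate 1 alone these 4 calls held (-6.47, -2.22, 1.30 and 1.29). Those of Ascl2 (-1.01 ± 0.25) and Msi1 (-3.06 ± 0.89) ended, at adjusted p of 0.0816 and 0.0797, and that of Msi1 ended also without VIL replicate 2 (0.0641). Msi1 rested on 14, 5 and 0 counts in VIL, against 51, 55 and 65 counts in MG_Control. Lgr5 was at 154, 143 and 48.6 CPM in VIL and 201, 116 and 157 CPM in MG_Control, overlapping groups (-0.49 ± 0.38, adjusted p = 0.314).

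Of the 24 other genes of Lgr5 cells 1 was higher and 6 were lower in VIL than in COL_cWRNE (median -0.47). In this comparison 7.64% of all genes were called (5.68% higher, 1.96% lower). Axin2, a Wnt feedback gene, had 18.9, 13.4 and 17.8 CPM in VIL, against 47.0, 54.5 and 59.0 CPM in COL_cWRNE (-1.68 ± 0.17, edgeR adjusted p = 0.00138). Esrrg, an orphan nuclear receptor gene, had 0.816, 0.247 and 0.0906 CPM in VIL, against 10.5, 3.83 and 9.98 CPM in COL_cWRNE. The gene that was higher, Fstl1, which fibroblasts also express, had 2.14, 45.4 and 55.3 CPM in VIL, against 0.594, 0.502 and 1.55 CPM in COL_cWRNE, high in the 2 libraries with the most mesenchymal markers. Of 22 Wnt receptors and transducers Tcf7l2 was higher (0.66 ± 0.13) and Tcf7 and Fzd2 were lower (-0.80 ± 0.18 and -1.26 ± 0.27).

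Across all 6 groups, Lgr5 means ran in the order COL_Control (456 ± 51.2 CPM, SD, n = 3), COL_5FU (237 ± 90.8), COL_cWRNE (215 ± 46.3), MG_Control (158 ± 42.3), VIL (115 ± 57.9) and MG_5FU (92.4 ± 7.25). Only the first pair of neighbours did not overlap. For Olfm4 the order was MG_Control (3816 ± 524 CPM), MG_5FU (562 ± 136), COL_Control (153 ± 52.1), COL_cWRNE (113 ± 53.3), VIL (19.1 ± 22.4) and COL_5FU (8.08 ± 3.50). COL_Control and COL_cWRNE overlapped, as did VIL and COL_5FU, and the other neighbours did not.

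Among 13840 genes the one whose centred log2 CPM lay closest to that of Lgr5 over the 18 libraries was Bub1, a spindle checkpoint kinase, with a root mean square difference of 0.36, followed by Fanci (0.39), a DNA repair gene, and Tmem107 (0.39), a ciliary membrane protein gene. Bub1 averaged 28.5 CPM in MG_5FU, 63.4 in MG_Control, 60.3 in COL_5FU, 102 in COL_Control, 30.9 in VIL and 60.4 in COL_cWRNE. The closest to Olfm4 were Sfrp5 (1.37), a secreted Wnt antagonist, Pbld1 (1.48) and Otc (1.52), a urea cycle enzyme. These distances are larger than those for Lgr5, and Sfrp5 averaged 0.339 CPM in COL_5FU and 25.3 CPM in MG_Control. The points share libraries and depth, and likeness is a description only.

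Some reads at these genes could belong to neighbours, since strand use in counting is not given in the sources used here. In an older annotation (GENCODE M21, another build) 424 of the 7175 exonic bases of Prom1 lie opposite Gm16401, at 0.416 to 1.15 CPM here, and 144 of the 5585 of Lrig1 lie opposite Slc25a26, at 4.26 to 14.6 CPM. Olfm4 shares 153 of 2962 exonic bases with Gm6999 on its own strand, at 0.0732 CPM or less.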

How the data were processed

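RNA was made into SMART-Seq and Nextera XT libraries, sequenced on a NovaSeq X Plus, per the labels' protocols. The submitters' processing notes name bcl2fastq 2.20, DRAGEN and GRCm39/mm39; the annotation, counter and strand setting are not given in the sources used here. The deposited table holds, per the file headers, an estimated count and a TPM for each gene and library; 67.8% of nonzero estimated counts were whole (tolerance 1e-09), and the authors' TPM sum to 1000000 per library. Counts were rounded to whole numbers here. Gene symbols matched 52081 of 55414 identifiers.

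Tests used edgeR 4.0.16 in R 4.3.3 (TMM scaling, filterByExpr with a minimum count of 10 and total of 15, quasi-likelihood F-test, Benjamini-Hochberg adjustment over all genes). The 4 MG and COL groups with and without 5-FU were fitted together (16611 genes), as were VIL, COL_cWRNE and MG_Control (16699 genes), and COL_cWRNE against COL_Control was taken from a fit of all 18 libraries (17708 genes). Standard errors were the log2 fold change over the square root of F. Alternatives were library totals, RLE size factors, other filters, DESeq2 1.42.0, limma 3.58.1 on log2(TPM + 1) and log2(TPM + 0.1), other sets of libraries, a replicate block and left-out libraries; the one with VIL replicates 2 and 3 left out was chosen after seeing the data. All members were named, up to 4 genes of each other list with the smallest adjusted p in a comparison (Dclk1, Mex3a, Bmi1 and, in COL_5FU, Ly6a were added after their values were seen), and for Lgr5 and Olfm4 the 3 genes closest in centred log2 CPM among those with a mean of at least 1 CPM. The members and lists were chosen with earlier results of these data known.

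Same-numbered libraries deviated together (correlation over 0.1 for each number) for COL_5FU with COL_Control (0.205 to 0.43) and COL_cWRNE with COL_Control. MG_5FU with MG_Control missed that mark only in replicate 2 (0.095), with 0.555 in replicate 1 and 0.449 in replicate 3. VIL with COL_cWRNE did not meet it (-0.139 to 0.217). The main fits left the replicate number out. No replicate pair agreed within sampling noise (lowest chi-square per degree of freedom 11.3). Depths of 22.3 to 34.5 M limit precision mainly for Msi1.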

Additional observations from a re-analysis of the deposited data

Results flagged for a closer look

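For 3 members the 5-FU effect differed between collagen and Matrigel by the test of the difference itself (edgeR). On the log2 scale the effect in collagen minus that in Matrigel was -1.55 for Olfm4, -0.70 for Smoc2 and 1.01 for Prom1. The signs mean a deeper fall of Olfm4 and Smoc2 in COL_5FU, and for Prom1 a rise in COL_5FU beside an uncalled lower level in MG_5FU. The calls of Olfm4 and Smoc2 each ended in 7 of 12 fits with a library left out. They also ended in limma on TPM and with all 18 libraries fitted together, while that of Prom1 held throughout. The medium changed together with the matrix.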

How the results depend on the processing

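The called fold changes of members kept direction and call in 541 values under other settings and kept direction only in 51. Among those settings is the cut at a log2 change of at least 1, which ends calls by size without a new fit. With libraries left out these numbers were 295 and 61. In counts of members called, MG_5FU against MG_Control gave 7, but 4 when all 18 libraries were fitted together and 3 at a log2 change of at least 1. At that size COL_5FU against COL_Control gave 6 of 10, COL_Control against MG_Control 4 of 7, COL_cWRNE against COL_Control 4 of 7 and VIL against COL_cWRNE 1 of 2. The interaction gave 3, but 1 in each limma fit on TPM and 1 with all 18 libraries fitted together, and 1 to 3 with a library left out. COL_cWRNE against COL_Control gave 7, but 3 to 6 with a library left out and 5 with the replicate block. It gave 8 with DESeq2 and 8 with only the compared groups fitted. VIL against COL_cWRNE gave 2, but 1 with the replicate block (the call of Ascl2 ended, adjusted p = 0.0608), 4 with DESeq2, 6 with all 18 libraries fitted together, 1 with only the compared groups fitted, 1 to 6 with a library left out, and 3 without VIL replicates 2 and 3. The replicate block changed no other count. The causes were not tested.

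Directions turned for uncalled members. For COL_Control against MG_Control, Sox9 was 0.056 with library totals, 0.0051 with the 10 CPM filter and 0.14 in both TPM fits (-0.11 to 0.061 with a library left out), Msi1 was 0.011 with library totals (-0.29 to 0.064 with a library left out), and Smoc2 was -0.0098 to 0.13 with a library left out. For COL_5FU against MG_5FU, Ascl2 was 0.13 in both TPM fits. For COL_cWRNE against COL_Control, Prom1 was -0.12 with library totals, -0.055 in both TPM fits and -0.044 to 0.13 with a library left out. For COL_cWRNE against MG_Control, Ascl2 was 0.051 without a filter, 0.049 and 0.050 in the TPM fits, 0.028 with all 18 libraries and -0.12 to 0.15 with a library left out, and Lrig1 was 0.062 and 0.063 in the TPM fits and -0.21 to 0.060 with a library left out. With a library left out, Ascl2 was -0.15 to 0.011 in MG_5FU against MG_Control, Lgr5 -0.54 to 0.022 in the interaction, and Tnfrsf19 -0.10 to 0.67 in VIL against MG_Control, or 1.02 without VIL replicates 2 and 3.

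Library totals in place of TMM moved the median of all genes by -0.15 in MG_5FU against MG_Control (higher share of calls 44.6%, against 62.2% with TMM), -0.11 in COL_5FU against COL_Control (41.7%, against 52.8%), 0.12 in COL_5FU against MG_5FU (60.4%, against 47.8%) and -0.17 in COL_cWRNE against COL_Control (45.2%, against 73.0%). For the interaction the share was 33.0%, or 33.7% with RLE size factors, against 23.0%. No called member changed direction.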
